A study of Homo sapiens with 4 samples.

Results

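DNA methylation was profiled in the spans of 8 human genes whose proteins write, erase or read the mark. These were DNMT1, DNMT3A, DNMT3B and UHRF1 (writers and a writer's partner), TET1, TET2 and TET3 (erasers) and MBD2 (a reader). The members were all peaks of the deposited lists that overlapped 1 of 8 fixed hg19 intervals, 814 kb in all. They numbered 254 of 261657 peaks in the control list and 271 of 296521 in the knockout list. The genes were chosen for the function of their proteins, and the peaks by position alone.

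The data come from MeDIP-seq, in which methylated DNA fragments are pulled down with an antibody and sequenced, in C42B cells, a prostate cancer line. The control cells were sgC (WT), carrying a control guide RNA, and the other cells were PKCl/i KO (sgPKCl/i), knocked out for PKCλ/ι, an atypical protein kinase C encoded by PRKCI, with a guide RNA. Both were untreated and were harvested 48 h after plating at about 70% confluency. Each genotype had 1 input library and 1 library immunoprecipitated with an antibody against 5-methylcytosine (5mC), and whether the knockout was a clone or a pool was not given in the sources used here. No difference below has a replicate check, no test between genotypes was made, and intervals cover counting error only. The knockout immunoprecipitate was deeper, with a genome-wide mean pileup (overlapping fragments per base, as the caller estimated it) of 4.42 against 2.92 in the control, a ratio of 1.51. Pileups are therefore also given as multiples of the mean of their own library. A peak is a stretch called as enriched over its local background at a −log10 q (false discovery rate) of at least 2.00, and the authors' fold is pileup over that background.

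Cytosine methylation in vertebrates sits mostly at CpG dinucleotides. DNMT1 copies the pattern onto the new strand at replication, guided by UHRF1, which binds hemimethylated CpGs. DNMT3A and DNMT3B set methylation de novo. The TET dioxygenases oxidise 5-methylcytosine and so start its removal, and MBD2 binds methylated CpGs and brings the NuRD corepressor complex. Bodies of expressed genes are commonly methylated, while promoters that are CpG islands are commonly free of the mark. MeDIP pulls down fragments with several methylated CpGs, so its signal depends on CpG density as well as on methylation.

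The promoters of these genes differ widely in how many CpGs an antibody could find methylated. RefSeq (GRCh38.p14) lists 19 start sites for the 8 genes, and all 8 genes matched by symbol. In windows of 300 bases around these starts, the CpG count ran from 3 at DNMT3B to 46 at starts of DNMT3A and UHRF1, against a median of 14 over 35116 promoter windows. The motif searched was CG, which reads the same on both strands and is found in 96.0% of all windows. At least as many CpGs as the DNMT1 window, with 30, were held by 22.4% of all windows, and as many as the MBD2 window, with 32, by 18.9%. The 3 CpGs of the listed DNMT3B start were reached by 81.8%. The 2 starts of TET2 differed, with 13 and 35 CpGs. The 250 bases before 4 of these starts are shown 5′ to 3′ on the strand of the gene, with each CpG in capitals, because they span the range from CpG-poor to CpG-rich. The hg19 positions of the starts were not used here, so no peak was assigned to a promoter. Distances below run from the span edge on the side of the gene's start, which need not be the start itself. A span can reach past the gene, and whether a peak near a span edge lay inside the gene was not determined.
DNMT1: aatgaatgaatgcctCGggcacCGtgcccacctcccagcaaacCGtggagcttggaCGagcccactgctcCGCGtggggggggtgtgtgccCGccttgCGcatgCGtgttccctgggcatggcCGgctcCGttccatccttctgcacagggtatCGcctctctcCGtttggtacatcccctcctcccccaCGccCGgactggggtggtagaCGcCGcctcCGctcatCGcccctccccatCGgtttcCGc
MBD2: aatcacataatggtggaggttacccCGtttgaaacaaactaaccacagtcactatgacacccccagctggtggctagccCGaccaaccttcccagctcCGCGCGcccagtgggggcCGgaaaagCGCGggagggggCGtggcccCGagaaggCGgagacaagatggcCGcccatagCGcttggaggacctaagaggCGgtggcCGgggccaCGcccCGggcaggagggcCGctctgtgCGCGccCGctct
TET2, CpG-rich start: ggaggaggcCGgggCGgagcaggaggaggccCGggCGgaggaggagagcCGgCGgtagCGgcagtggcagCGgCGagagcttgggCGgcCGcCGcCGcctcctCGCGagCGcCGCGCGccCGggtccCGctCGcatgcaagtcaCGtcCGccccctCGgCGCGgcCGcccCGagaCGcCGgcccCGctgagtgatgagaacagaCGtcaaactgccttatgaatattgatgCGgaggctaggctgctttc
DNMT3B: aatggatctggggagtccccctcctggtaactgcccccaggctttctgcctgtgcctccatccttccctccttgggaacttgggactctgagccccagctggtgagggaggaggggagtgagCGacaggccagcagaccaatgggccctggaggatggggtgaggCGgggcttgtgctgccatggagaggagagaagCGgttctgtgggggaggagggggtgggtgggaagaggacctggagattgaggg

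Methylated regions were dense over DNMT1, UHRF1, DNMT3A and DNMT3B and sparse over TET2. The order of the genes was much the same in both genotypes. DNMT1 had 56.9 (control) and 55.6 (knockout) peaks per 100 kb, and UHRF1 had 54.0 and 55.6. DNMT3A followed with 50.0 and 47.5, and DNMT3B with 47.4 and 43.9. Lower densities were found over MBD2 (28.0 and 31.7), TET1 (23.6 and 29.2) and TET3 (20.5 and 26.5). TET2 was lowest, with 5.56 and 7.64. The Poisson intervals of DNMT1, UHRF1, DNMT3A and DNMT3B overlapped one another in each list, as did those of MBD2, TET1 and TET3. These sets were not separate, because the interval of MBD2 overlapped those of all the denser genes in both lists. In the knockout list the intervals of TET1 and TET3 also overlapped those of DNMT3A and DNMT3B. Those of TET2 lay below all others. All 8 densities exceeded the median window of the same length on the same chromosome, although the interval of TET2 included that median in both lists. The flanks of UHRF1 and DNMT3B, given below, held about as many peaks as their spans, so the density there was not particular to the gene.

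**Figure D1:**
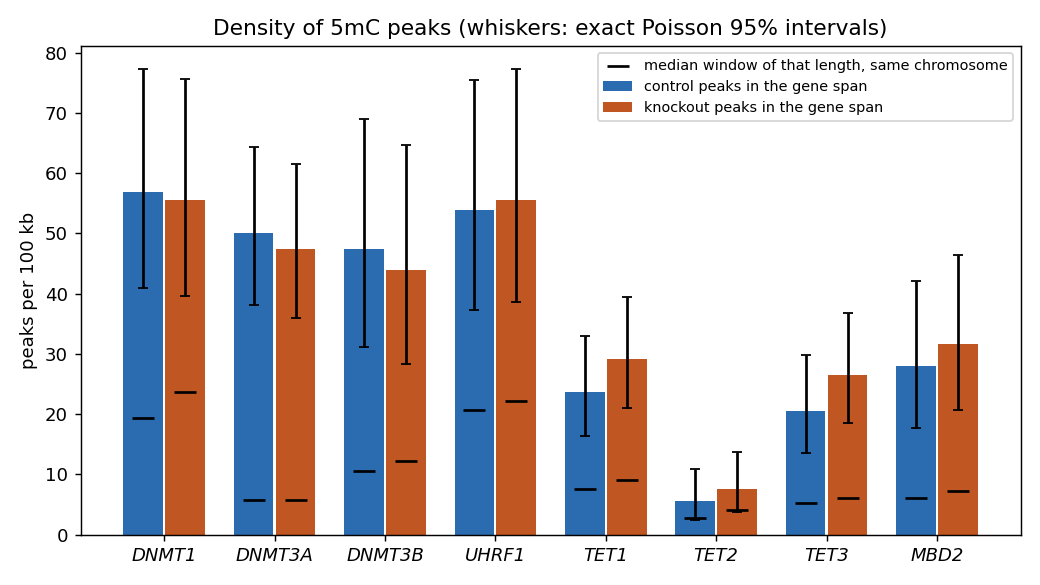
Peaks per 100 kb (y axis) in each gene span (x axis) for the control and knockout lists, 1 library each, with exact Poisson 95% intervals as whiskers. Black dashes mark the median over windows of the same length on the same chromosome. DNMT1, UHRF1, DNMT3A and DNMT3B lie between 43.9 and 56.9 peaks per 100 kb and TET2 at 5.56 and 7.64.

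**Figure D2:**
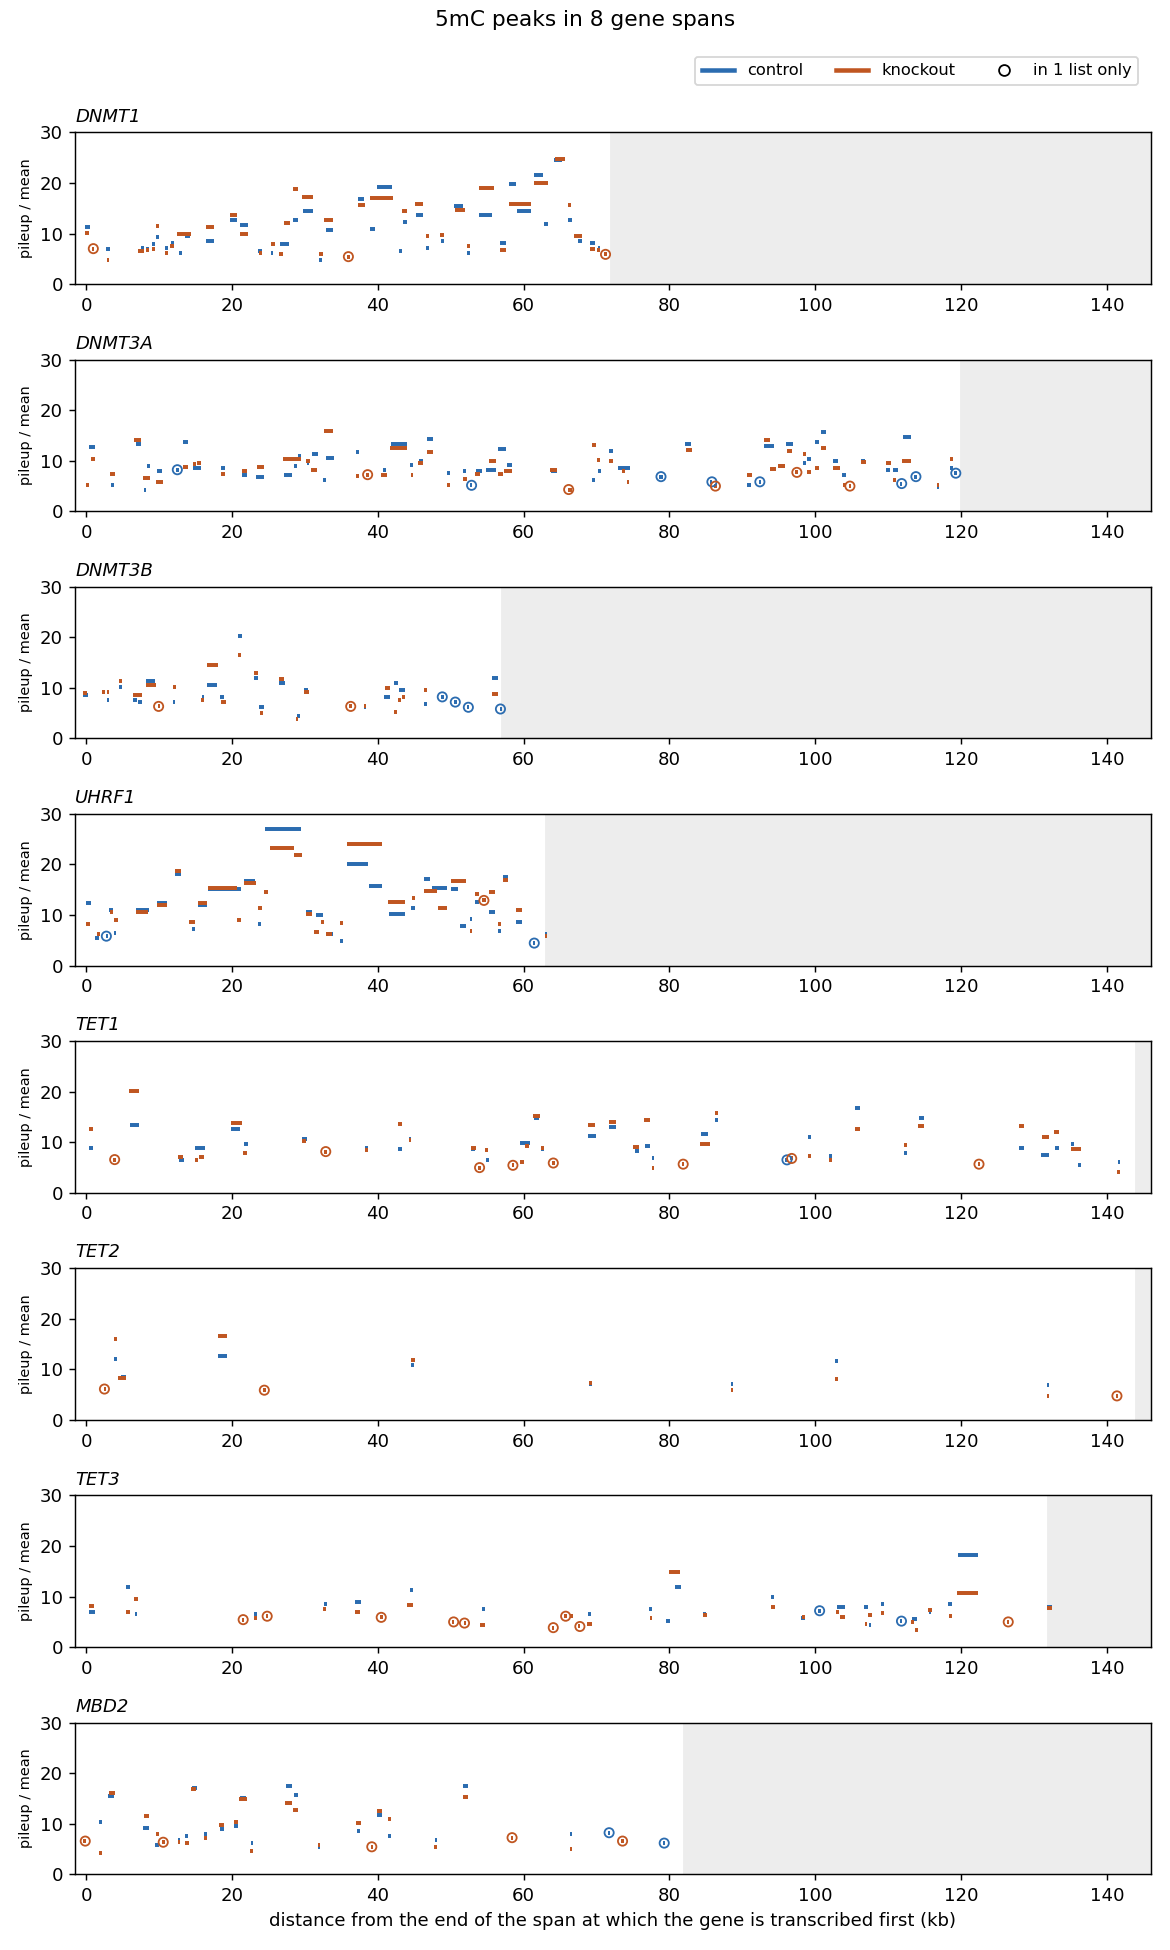
Each line is a peak, drawn at its position along the gene span (x axis) and at its pileup as a multiple of the library mean (y axis). Positions are in kb from the span edge on the side of the gene's start, which need not be the start itself. Circles mark peaks found in 1 list only, which are mostly low and short, and grey areas lie outside the span. UHRF1 and DNMT1 carry the highest peaks, and TET2 has 8 control and 11 knockout peaks over 144 kb.

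DNMT1, the maintenance methyltransferase, lies on chromosome 19 within 10.239 to 10.311 Mb and is transcribed towards lower coordinates. Its span held 41 control peaks (29.4 to 55.6) and 40 knockout peaks (28.6 to 54.5). Control peaks covered 32429 bp of it and knockout peaks 37452 bp. Control peaks overlapping the flanks of equal length numbered 14 below the span and 28 above it, and knockout peaks 20 and 29. The strongest region of the gene lay far from the start, 64.5 kb into the span, at 10245700 to 10246839 in the control and 10245378 to 10246771 in the knockout. Its pileup was 72 (56.3 to 90.7) in the control against 109 (89.5 to 131), which is 24.6 times the mean in both libraries. The widest stretch with no peak in either list was 3782 bp long, from 10303910 to 10307691. It lay between 3.31 and 7.09 kb inside the span edge on the side of the gene's start, with peaks on either side of it.

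UHRF1, which recruits DNMT1 to newly replicated DNA, lies on chromosome 19 within 4.904 to 4.967 Mb and is transcribed towards higher coordinates. ARRDC5 overlaps it in RefSeq (GRCh38.p14). UHRF1 was the most fully covered of the 8 genes, at 61.8% in the control and 63.4% in the knockout, with 34 and 35 peaks. The flanks of equal length below and above the span held 37 and 29 control peaks and 33 and 33 knockout peaks. The peaks of UHRF1 were broad, with 11 of the control and 12 of the knockout peaks at least 1000 bp long. The longest control peak of the 8 genes, 4975 bp at 4928539 to 4933513, reached 79 overlapping fragments (62.5 to 98.5), or 27.0 times the mean. The knockout list split this region into 3 peaks, of which the middle one, at 4929146 to 4932439, had a pileup of 103. The strongest knockout peak lay further along, at 4939737 to 4944533, where 106 fragments overlapped (86.8 to 128), or 24.0 times the mean. As in DNMT1, the widest stretch without a peak, of 2399 bp at 4908399 to 4910797, lay near the start, 4.40 to 6.80 kb into the span. Peaks of at least 1000 bp made up 17.3% of the control peaks and 17.0% of the knockout peaks over the 8 genes, against 8.78% and 10.1% of the whole lists. Their counts were uneven, with 12 of 41 control and 14 of 40 knockout peaks in DNMT1. DNMT3A had 10 of 60 and 6 of 57, and TET1 had 6 of 34 and 7 of 42. The genes other than these and UHRF1 held at most 3 each in either list. In TET2, with few peaks, they were 1 of 8 control and 2 of 11 knockout peaks.

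DNMT3A, a de novo methyltransferase, lies on chromosome 2 within 25.450 to 25.570 Mb and is transcribed towards lower coordinates. It held the most peaks, 60 in the control (45.8 to 77.2) and 57 in the knockout (43.2 to 73.9), covering 33.4% and 33.2% of the span. The peaks were spread along the gene without a dominant region. The highest control peak, at 25468534 to 25469242, had a pileup of 46 (33.7 to 61.4), and the highest knockout peak, at 25536139 to 25537436, had 70 (54.6 to 88.4), each 15.7 or 15.8 times the mean. The flank above the span held 48 control and 37 knockout peaks and the flank below it 24 and 20.

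DNMT3B, the other de novo enzyme, lies on chromosome 20 within 31.345 to 31.402 Mb and is transcribed towards higher coordinates. It held 27 control and 25 knockout peaks, covering 25.1% and 23.6%. The flanks of equal length below and above the span held 26 and 21 control peaks and 25 and 21 knockout peaks. Both lists had their highest peak at the same place, 21.0 kb into the span, at 31365747 to 31366343 in the control and 31365753 to 31366274 in the knockout. The control pileup was 59 (44.9 to 76.1), or 20.2 times the mean, and the knockout pileup 73 (57.2 to 91.8), or 16.5 times. Near the far end of the gene 3 consecutive peaks were found in the control list only, between 31393696 and 31397481, with pileups of 24, 21 and 18. The knockout list had no peak within 1931 bp of the first of them, and this run of 3.79 kb was singled out after its values were seen. It was the only run of 3 list-only peaks in the 8 spans. Another control-only peak, of pileup 17, lay at 31401684 to 31402021, where a knockout peak was 271 bp away.

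TET1, which oxidises 5-methylcytosine and carries a CXXC domain that binds CpG-rich DNA, lies on chromosome 10 within 70.315 to 70.459 Mb and is transcribed towards higher coordinates. The span held 34 control and 42 knockout peaks, covering 15.7% and 18.3%. Its flanks were denser, with 61 and 55 control peaks and 65 and 63 knockout peaks over the same length. The highest knockout peak lay near the start, 6.32 kb into the span at 70320820 to 70322256, where the pileup reached 89 (71.5 to 110), or 20.1 times the mean. The control peak there had a pileup of 39, or 13.3 times the mean. In the control the highest peak was at 70420423 to 70421141, with a pileup of 49 (36.25 to 64.8), where the knockout had 56.

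TET2, a TET enzyme without a CXXC domain of its own, lies on chromosome 4 within 106.062 to 106.206 Mb and is transcribed towards higher coordinates. The span held 8 control peaks (3.45 to 15.8) and 11 knockout peaks (5.49 to 19.7), which covered 3.01% and 4.07% of its 144 kb. Its surroundings were also poor, with 2 and 6 control peaks and 3 and 11 knockout peaks in the flanks. A stretch of 65.5 kb with no peak in either list began at 106203559, near the far end, and stretches of 28.6, 23.9 and 20.0 kb lay inside the span. The highest peak of both lists lay about 19.1 kb into the span, at 106080063 to 106081323 in the control, with a pileup of 37 (26.05 to 51.0), or 12.7 times the mean. The knockout peak at 106080043 to 106081328 reached 73 (57.2 to 91.8), or 16.5 times the mean. Every control peak of TET2 overlapped a knockout peak.

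TET3, the remaining TET enzyme, lies on chromosome 2 within 74.208 to 74.340 Mb and is transcribed towards higher coordinates. It held 27 control and 35 knockout peaks, covering 11.6% and 14.8%. The peaks were weak, with median pileups of 22 (control) and 27 (knockout), or 7.53 and 6.10 times the mean, the lowest of the 8 genes in each list. The highest control peak, at 74327526 to 74330288, had a pileup of 53 (39.7 to 69.3), or 18.1 times the mean. The knockout peak there had 47. The highest knockout peak lay at 74287969 to 74289499 and reached 66 (51.0 to 84.0), or 14.9 times the mean. A stretch of 14.3 kb without a peak began 7.02 kb into the span. The flanks of equal length below and above the span held 14 and 17 control peaks and 13 and 18 knockout peaks.

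MBD2, the reader, lies on chromosome 18 within 51.674 to 51.756 Mb and is transcribed towards lower coordinates. It held 23 control and 26 knockout peaks, covering 13.9% and 15.9%, and none of them reached 1000 bp. The surroundings were nearly bare on the side past the gene's end. There the flank of 82 kb held 1 control peak and 0 knockout peaks, and the flank on the other side held 7 and 11. The highest control peak was at 51703683 to 51704333, where the pileup was 51 (37.97 to 67.1), or 17.4 times the mean. The highest knockout peak was at 51740925 to 51741590, where 75 fragments overlapped (59.0 to 94.0), or 17.0 times the mean, and the control peak had 50.

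Most methylated regions of these genes were found in both genotypes. In the control list 19 of 254 peaks, 7.48% (4.56 to 11.4), shared no base with a knockout peak, against 12.1% of the whole list. In the knockout list 36 of 271, 13.3% (9.48 to 17.9), shared no base with a control peak, against 23.9% of the whole list. Both shares were thus below those of the whole lists. The order of the 2 counts depended on the processing. The knockout pileups and backgrounds were divided by the ratio of the library means, 1.51, and only as many knockout peaks were kept as the control list has. Then 29 of 246 peaks (11.8%, 8.04 to 16.5) were knockout-only, against 20.0% of the whole list, and 35 of 254 (13.8%, 9.79 to 18.6) were control-only, against 17.8%. With only peaks of an authors' fold of at least 5 in both lists, 35 of 177 control peaks were control-only, against 23.4% of the whole list, and 31 of 174 knockout peaks were knockout-only, against 28.6%. Under both settings control-only peaks were the more numerous, and the shares at the scaled depth were still below those of the whole lists. In the deposited lists control-only peaks had pileups of 13 to 24 and lengths of 300 to 440 bp, and knockout-only peaks had pileups of 17 to 57 and lengths of 299 to 546 bp. Shared peaks were higher and longer, with median pileups of 26 (control) and 40 (knockout) and median lengths of 568 and 605 bp.

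**Figure D3:**
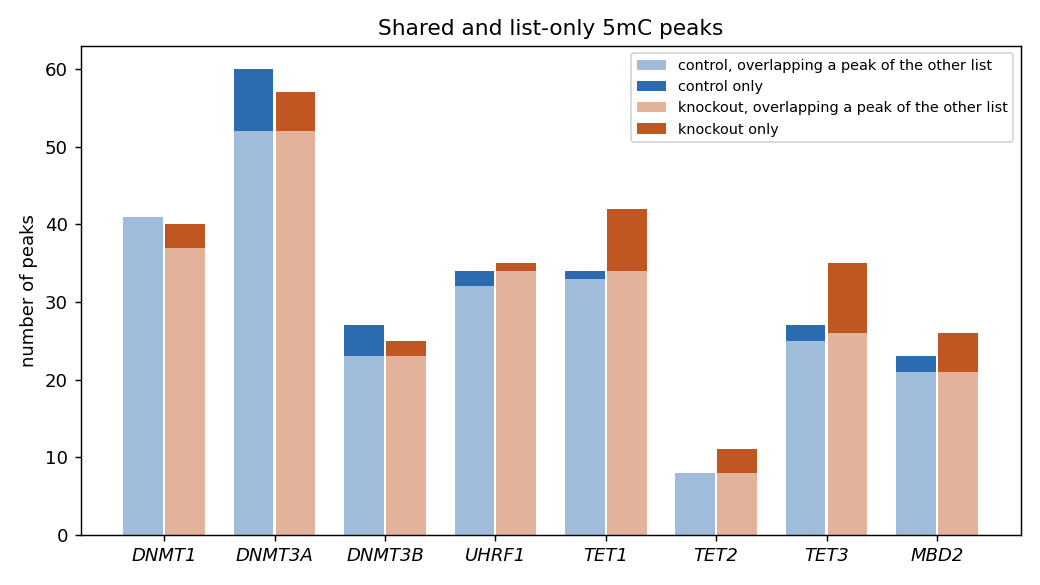
Number of peaks (y axis) in each gene span (x axis), pale where a peak overlaps one of the other list and dark where it does not, with 1 library per genotype. DNMT3A and DNMT3B have more control-only than knockout-only peaks, 8 against 5 and 4 against 2, and TET1, TET2, TET3, MBD2 and DNMT1 have more knockout-only ones.

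The genes differed in which list held more of their list-only peaks, in most of them by few peaks. TET3 had 9 knockout-only and 2 control-only peaks, and 8 of the 9 lay between 21.5 and 67.7 kb into the span. TET1 had 8 against 1, MBD2 5 against 2, and TET2 and DNMT1 3 against 0 each. DNMT3A went the other way with 5 knockout-only against 8 control-only peaks, as did DNMT3B with 2 against 4 and UHRF1 with 1 against 2. In DNMT3A most control-only peaks lay near a knockout peak, and the split there rested on them. Over 1000 bp from the other list it had only the control-only peak at 25490929 to 25491368 and the knockout-only peak at 25503400 to 25503896. Over the whole lists knockout-only peaks were the more numerous, 70955 against 31568, and the difference between the genes was not tested. With the knockout scaled by the ratio of means, the control-only and knockout-only peaks numbered 11 and 4 in DNMT3A, 8 and 2 in DNMT3B and 2 and 1 in UHRF1. They were 2 and 7 in TET1, 4 and 6 in TET3 and 1 and 2 in TET2, but 5 each in MBD2 and 2 each in DNMT1.

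Strong peaks, those with a −log10 q of at least 10, numbered 159 in the control (62.6%, against 57.0% of the whole list). In the deeper knockout library they numbered 218 (80.4%, against 74.5% of the whole list). Of the strong peaks of these genes 2 were control-only (1.26%, 0.153 to 4.47), against 3.24% of all strong control peaks. The 18 knockout-only ones were 8.26% (4.97 to 12.7), against 14.9% of all strong knockout peaks. The most enriched was in UHRF1 at 4958281 to 4958826, where the pileup reached 57 (43.2 to 73.9), 12.9 times the mean, with an authors' fold of 8.29. The nearest control peak was 371 bp away. TET1 followed at 70347625 to 70347987, with a pileup of 36 (25.2 to 49.8) and no control peak within 2392 bp. The next 3 lay in DNMT1 at 10309894 to 10310266, in MBD2 at 51697415 to 51697787 and in DNMT3A at 25531214 to 25531686, with pileups of 31, 32 and 32. The DNMT1 peak lay 0.953 kb inside the span edge on the side of the gene's start. With pileups scaled to the control's depth only those of UHRF1 and TET1 still had a −log10 q of at least 10, at 21.7 and 12.0. At that scaling 6 of 159 strong control peaks (3.77%, 1.40 to 8.03) were control-only, against 5.29% of all strong control peaks. Of the strong knockout peaks 2 of 148 (1.35%, 0.164 to 4.796) were knockout-only, against 6.10% of all. The 2 strong control-only peaks were in the spans of DNMT3B and DNMT3A. That of DNMT3B, at 31393696 to 31394012, was the first of the run above, with a pileup of 24 (15.4 to 35.7). That of DNMT3A, at 25450536 to 25450926, had 22 (13.8 to 33.3), and a knockout peak was 122 bp away. It lay 0.712 kb inside the span edge on the side of the gene's end. Spans narrowed by 5 kb at both ends kept only 1 strong control-only peak.

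For most of the genes, regions paired 1 to 1 between the lists had similar levels. A pair is a control and a knockout peak that overlap each other and no other peak, and its log2 ratio is that of the pileups, knockout over control, each divided by the mean of its library. Shared regions split or merged between the lists, such as the long control peak of UHRF1 at 4928539 to 4933513, formed no pair and were left out. The 189 pairs of the 8 genes had a median log2 ratio of -0.01 (-0.06 to 0.05), against 0.04 over all 206556 pairs, and 91 of them lay above 0. Pairs over 1.5-fold higher in the knockout numbered 5 (2.65%, against 5.14% of all pairs), and those over 1.5-fold lower numbered 12 (6.35%, against 3.60%). This scaling removes any change common to the whole genome.

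By gene the median log2 ratio was 0.05 in DNMT1 (-0.10 to 0.26, 30 pairs), 0.05 in UHRF1 (-0.04 to 0.26, 23 pairs) and 0.02 in DNMT3B (-0.18 to 0.14, 20 pairs). It was 0.11 in TET1 (-0.09 to 0.27, 29 pairs), -0.01 in TET2 (-0.53 to 0.42, 8 pairs) and -0.01 in MBD2 (-0.31 to 0.12, 21 pairs). These intervals all included 0 and the median of the pairs within 2 Mb outside the gene. Both genes of chromosome 2 had lower medians. DNMT3A had a median of -0.13 (-0.31 to 0.05, 39 pairs), with 15 pairs above 0, and its neighbourhood had -0.15. The interval of DNMT3A included both 0 and this value. TET3 had -0.33 (-0.49 to -0.01, 19 pairs), with 4 pairs above 0, and its neighbourhood had -0.18 over 201 pairs. The median over all of chromosome 2 was -0.09. The local background, which the caller takes from the input or the library mean, had a median log2 ratio of 0.00 in the TET3 pairs. In 11 of the 19 pairs both backgrounds were at the library mean, which sets their ratio to 0. This median therefore cannot show whether the input differed there. The interval of TET3 included the value of its neighbourhood. The part of this regional shift in the values of DNMT3A and TET3 was not tested. Intervals of medians cover the scatter between pairs of these 2 libraries.

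**Figure D4:**
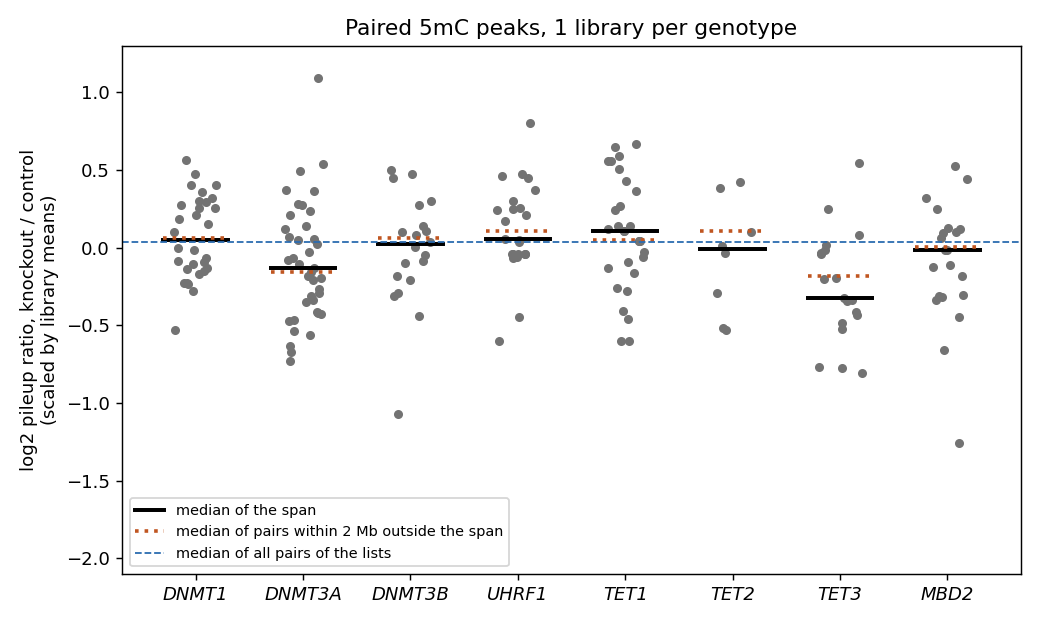
Each point is a pair of overlapping peaks, with its log2 pileup ratio, knockout over control, scaled by the library means (y axis), in each gene (x axis). Black lines are medians of the span, dotted lines medians of the pairs within 2 Mb outside it, and the dashed line the median of all pairs, 0.04. TET3 lies lowest with a median of -0.33, and its neighbourhood has -0.18.

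The counting interval left out 0 in 6 of 189 pairs. With 95% intervals counting error alone could give as many, so none of these regions is shown to differ, and they are given as values. The interval of the ratio lay above 0 in 2 of 189 pairs (1.06%, against 2.31% of all pairs) and below 0 in 4 (2.12%, against 0.889%). In DNMT3A the pair at 25500181 to 25500657 had pileups of 18 (control) and 58 (knockout), a log2 ratio of 1.09 (0.31 to 1.94), the highest of the 8 genes. Its local background was also higher in the knockout, with a log2 ratio of 0.75. The pair near the start of TET1, with 39 and 89, had a log2 ratio of 0.59 (0.03 to 1.17) and a background ratio of 0.02.

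The lowest pair lay in MBD2 at 51753880 to 51754238, with pileups of 30 (control) and 19 (knockout). It lay 1.91 kb inside the span edge on the side of the gene's start. Its log2 ratio was -1.26 (-2.17 to -0.38), and its background was at the library mean in both. In DNMT3B the pair at 31387274 to 31387752 had 32 and 23, a log2 ratio of -1.07 (-1.91 to -0.26). The knockout background was higher there, with a log2 ratio of 0.87, and the authors' fold was 6.50 (control) and 1.95 (knockout). In TET3 the broad region at 74327526 to 74330288, with 53 and 47, had a log2 ratio of -0.77 (-1.37 to -0.18) and a background ratio of 0.83. The TET3 pair at 74213385 to 74213918, named after its values were seen, had 35 and 31, a log2 ratio of -0.77 (-1.52 to -0.03) and a background at the library mean in both lists.

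The other extremes of each gene had intervals that included 0. In UHRF1 the highest pair, at 4938770 to 4939162, had pileups of 14 and 37 and a log2 ratio of 0.80 (-0.12 to 1.81), and the lowest, at 4903924 to 4904585, had 36 in both and -0.60 (-1.31 to 0.11). In TET1 the highest, at 70357789 to 70358261, had 25 and 60 and a ratio of 0.67 (-0.03 to 1.40), and the lowest, at 70456515 to 70456822, had 18 in both and -0.60 (-1.62 to 0.43). DNMT1 had the narrowest range of the 5 genes with 21 or more pairs. It ran from -0.53 (-1.48 to 0.43) at 10307692 to 10308269 to 0.57 (-0.01 to 1.17) at 10281909 to 10282710, where pileups were 37 and 83 and the background ratio was 1.01. The lowest pair of DNMT3A, at 25532590 to 25533072, had 34 and 31 and -0.73 (-1.48 to 0.01). The highest pair of DNMT3B, at 31356888 to 31357207, had 21 and 45 and 0.50 (-0.28 to 1.32). TET3 ran from -0.81 (-1.78 to 0.14) at 74262268 to 74262671, with 22 and 19, to 0.55 (-0.27 to 1.41) at 74214627 to 74214973, with 19 and 42. The highest pair of MBD2, at 51714221 to 51714643, had 22 and 48 and 0.53 (-0.23 to 1.33).

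TET2, with few regions, can be shown in full. Its 8 pairs, in the order of transcription, had control pileups of 35, 25, 37, 32, 21, 21, 34 and 20. The knockout pileups in the same order were 71, 37, 73, 52, 32, 26, 36 and 21. Scaled by the library means, the log2 ratios were 0.42, -0.03, 0.38, 0.10, 0.01, -0.29, -0.52 and -0.53. The first 5 thus lay between -0.03 and 0.42 and the last 3 below 0, a pattern noticed after the values were seen. Each of the 8 counting intervals included 0, from -0.18 to 1.05 at the first pair and -1.48 to 0.43 at the last. The 3 knockout-only peaks of TET2 had pileups of 27, 26 and 21 and lay 2.48, 24.4 and 141 kb into the span.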

How the data were processed

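Per the submitters' processing notes, BWA, FastQC, MACS2 and the hg19 build were used, with settings not given in the sources used here. There was 1 deposited list for each immunoprecipitated library, with 4 values per peak. The deposited signal is the pileup at the summit in whole fragments, not scaled between libraries. The authors' fold is the ratio of pileup to local background, both raised by 1. Significance is deposited as −log10 p and −log10 q. Lists were matched to samples by genotype and antibody words. Library totals were not listed, and relative depth was taken as the lowest local background recomputed from pileup and fold, the caller's genome-wide mean, which returned the listed −log10 p within 0.000573.

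Peaks sharing at least 1 bp were shared. Strong peaks had a −log10 q of at least 10. Scaling to the control's depth, which matches the mean pileup only and not read totals or inputs, divided knockout pileup and background by 1.51, recomputed the Poisson tail, read q from the control list and kept its number of peaks, with no random draw. Chromosome windows had the length of the span, held at least 1 peak and counted summits. Intervals are at 95%, exact Poisson for counts, Clopper-Pearson for shares and pair ratios, and order statistics for medians, and cover counting error or scatter of pairs only. Members and lists were chosen with earlier results of these data known. Peaks named were, in each span, the highest of each list and the pairs of highest and lowest ratio, and the 5 most enriched strong list-only peaks of each list. No annotation of hg19 was used, so the planned naming of peaks nearest a gene start and the other genes of the pathway were not analysed here. Strand, CpG counts and promoter sequences are from RefSeq (GRCh38.p14). Overlap and pairing were tested on simulated lists. Python 3.11.15, numpy 2.4.6, pandas 2.3.3, scipy 1.17.1 and matplotlib 3.10.9 were used.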

Additional observations from a re-analysis of the deposited data

How the results depend on the processing

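Over 11 results 43 alternatives were run. Counts and covered shares were held to 1.5 times and the median ratio to its interval. Of these 22 stayed within and 21 left the bounds, and the cause was not tested except where the setting itself removes or adds peaks. Counts and covered shares have no sign, so a reversal could not occur in them. The median log2 ratio stayed within -0.06 and 0.05 under all 7 of its alternatives, including the one without chromosome 2, which was chosen after seeing the data and gave 0.04. Its sign was positive in that setting, at a fold of at least 5 (0.005) and for the ratio of authors' folds (0.008). A fold of at least 5 left 177 control and 174 knockout peaks by construction, with 35 control-only and 31 knockout-only, so the order of both pairs of counts turned. At a −log10 q of 5 the control had 243 strong peaks, 15 of the strong peaks were control-only and 35 knockout-only. At 20 the control had 66 and the knockout 108, with 0 and 1 list-only. With 50% reciprocal overlap control-only and knockout-only peaks numbered 51 and 68, and strong ones 18 and 46. Requiring a distance over 1000 bp to the other list gave 9 and 20, and strong ones 1 and 10. Shares over the whole lists were not computed for the −log10 q, reciprocal overlap and distance settings. Whether these counts differ from the rest of the genome was therefore not assessed. Scaling the knockout by the ratio of means gave 35 control-only and 29 knockout-only peaks. Their shares were 13.8% and 11.8%, against 17.8% and 20.0% over the whole lists. Strong ones then numbered 6 and 2 (3.77% and 1.35%, against 5.29% and 6.10% over the whole lists). Spans narrowed by 5 kb at both ends left 1 strong control-only peak. No paired analysis was possible because only 1 library represented each genotype. Without library totals and replicates, list-only peaks near the caller's threshold cannot be told from counting error.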
